A study of Mus musculus with 3 samples.

Results

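Skeletal muscle genes were followed sample by sample in whole brown fat, a tissue that burns fuel to make heat. The list holds 35 genes of the contractile apparatus, calcium handling and energy supply of skeletal muscle, found by RefSeq accession among the array's probes and represented by the brightest probe that was well above background in at least 1 channel. All 35 were measured, among 23330 genes and unnamed features. They comprise 14 genes typical of fast fibres, 6 typical of slow fibres and 15 shared by both.

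Brown adipose tissue came from 10-week-old male mice on regular chow. The Ad-Lkb1 animals are labelled strain C57BL/6J and their wild-type littermates C57BL/6. The series title names deletion of LKB1, the kinase encoded by Stk11. The promoter that drives the deletion and the depot sampled are not given in the sources used here. Each of 3 two-colour Agilent arrays carried 1 Ad-Lkb1 sample in Cy5 and 1 wild-type sample in Cy3, which makes 3 biological replicates per genotype. All arrays had the same dye orientation and lay on 1 slide, so dye and genotype cannot be told apart. A sample is named below by genotype and array number.

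The targeted gene was lower in every Ad-Lkb1 sample. Stk11 had log2 levels of 8.36, 8.46 and 8.37 in the Ad-Lkb1 samples and 9.62, 9.63 and 9.54 in wild type, and its mean log2 ratio was -1.20 ± 0.06 (SD, n = 3; limma adjusted p = 0.0163). Whether its probe lies in the deleted part is not given in the sources used here. Ucp1, the uncoupling protein that defines brown fat, was bright in every sample, at log2 levels of 16.72 to 17.03 in Ad-Lkb1 and 15.34 to 15.42 in wild type (mean log2 ratio 1.48 ± 0.19, SD, n = 3; limma adjusted p = 0.0168). Of all features tested, 91.0% and 90.7% were well above background in Ad-Lkb1 2 and 3, samples in which the muscle genes were high. In wild type 1, where they were also high, the share was 83.8%. It was 85.1%, 83.5% and 83.8% in Ad-Lkb1 1, wild type 2 and wild type 3, where they were low. The part of this in the muscle results was not tested.

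Skeletal muscle contracts when myosin thick filaments pull on actin thin filaments. Calcium released from the sarcoplasmic reticulum binds troponin C, which moves troponin I, troponin T and tropomyosin off the actin sites. Fast and slow fibres use different genes for many of these proteins, so the fibre type of muscle RNA can be read from which of the related genes is present. Brown adipocytes share a developmental origin with skeletal muscle but do not build sarcomeres.

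Promoters of 4 of these genes are shown because they represent the fast, shared and slow members and carry motifs known from muscle genes. RefSeq promoter windows (GRCm38.p6, 250 bases before to 50 after the start) matched 28 of the 35 genes, in 35 windows. Capitals mark a CArG box (the serum response factor motif), a MEF2 box (the motif of myocyte enhancer factor 2) or TATAAA, on either strand. Acta1, the skeletal actin, lies on the minus strand at chr8:123894726-123895025, with a CArG box and TATAAA. Myh4, the myosin of the fastest fibres, lies on the plus strand at chr11:67237562-67237861, with a CArG box, a MEF2 box and 3 matches to TATAAA, of which 1 overlaps the MEF2 box. Pvalb, the calcium buffer parvalbumin of fast fibres, lies on the minus strand at chr15:78206351-78206650, with a MEF2 box. Myl3, a slow myosin light chain, lies on the plus strand at chr9:110763428-110763727, with a CArG box.
Acta1: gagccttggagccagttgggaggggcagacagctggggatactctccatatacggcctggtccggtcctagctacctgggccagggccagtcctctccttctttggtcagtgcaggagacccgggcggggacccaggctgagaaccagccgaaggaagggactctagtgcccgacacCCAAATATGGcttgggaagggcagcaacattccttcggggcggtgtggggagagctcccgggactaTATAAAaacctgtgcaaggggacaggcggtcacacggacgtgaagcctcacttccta
Myh4: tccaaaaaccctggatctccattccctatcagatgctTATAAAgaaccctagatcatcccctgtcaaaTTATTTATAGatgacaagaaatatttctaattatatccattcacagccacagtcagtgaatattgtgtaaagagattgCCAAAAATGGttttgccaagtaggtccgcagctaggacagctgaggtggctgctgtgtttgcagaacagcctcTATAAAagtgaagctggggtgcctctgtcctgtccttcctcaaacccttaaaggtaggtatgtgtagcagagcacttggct
Pvalb: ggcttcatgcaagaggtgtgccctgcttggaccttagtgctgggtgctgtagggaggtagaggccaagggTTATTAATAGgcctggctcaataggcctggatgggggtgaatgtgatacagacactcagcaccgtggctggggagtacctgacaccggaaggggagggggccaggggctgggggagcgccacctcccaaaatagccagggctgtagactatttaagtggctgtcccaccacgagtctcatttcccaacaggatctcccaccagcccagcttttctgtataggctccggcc
Myl3: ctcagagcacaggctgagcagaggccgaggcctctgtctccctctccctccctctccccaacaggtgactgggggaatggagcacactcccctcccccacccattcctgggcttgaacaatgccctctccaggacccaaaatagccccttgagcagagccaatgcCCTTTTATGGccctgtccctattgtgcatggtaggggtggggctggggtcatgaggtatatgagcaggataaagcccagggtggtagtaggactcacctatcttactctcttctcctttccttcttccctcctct

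A CArG box was found in 14.3% of the members' windows and in 1.63% of all 32851 windows. The genes with one were Acta1, Ldb3, Myh4 and Myl3. A MEF2 box was found in 14.3% of the members' windows and 3.19% of all windows, in Myh1, Myh4, Pgam2, Pvalb and Ttn. The E-box CANNTG, the motif of myogenic factors, was in 80.0% against 72.3%, and TATAAA in 20% against 13.6%. These are matches of letters, and no binding was measured.

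The muscle genes were high in 3 samples and low in the other 3, and the high samples came from both genotypes. Levels were high in wild type 1, Ad-Lkb1 2 and Ad-Lkb1 3, and low in Ad-Lkb1 1, wild type 2 and wild type 3. These 3 samples held the 3 highest of the 6 levels for 31 of 35 members, against 4.18% of all features. The exceptions were Mylpf, Myl3, Tnnt1 and Tnnc1. The log2 ratio, Ad-Lkb1 against wild type, was below 0 on array 1 and above 0 on arrays 2 and 3 for 32 of 35 members, against 10.0% of all features. The exceptions were Mylpf, Myl3 and Tnnc1. With a size of at least 1 on every array, these signs held for 17 members, against 0.12% of all features. The median log2 ratio over the 35 genes was -1.03 on array 1, 1.20 on array 2 and 1.50 on array 3. Which cells held this RNA was not measured. In bulk tissue, a different number of muscle fibres, a different amount of RNA per fibre and expression in other cells cannot be told apart.

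**Figure D1:**
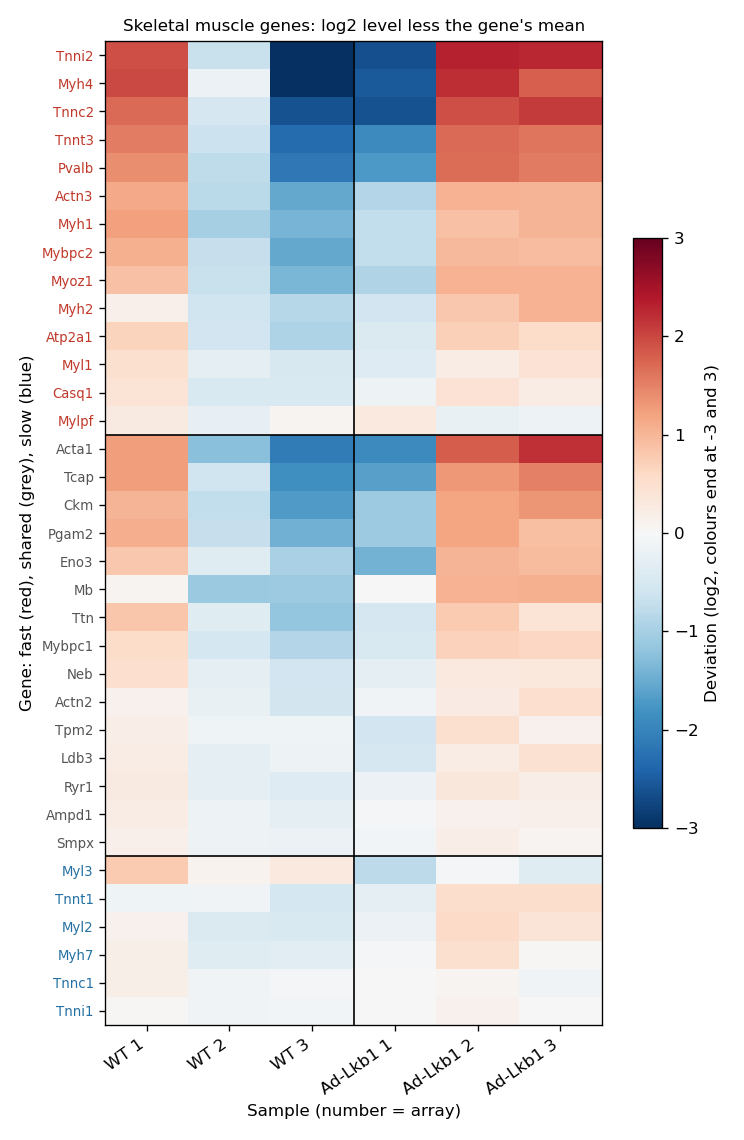
Each cell is a gene's log2 level in a sample less that gene's mean over 6 samples, for fast, shared and slow fibre genes. Wild type 1 and Ad-Lkb1 2 and 3 are red for nearly all fast and shared genes, and the other 3 samples are blue.

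No member passed the test between genotypes. With limma, 0 of 35 passed an adjusted p under 0.05, where 6.39% of all features did (3.47% higher and 2.91% lower in Ad-Lkb1), and the members' smallest adjusted p was 0.194. At an unadjusted p under 0.05 the count was also 0 of 35, against 26.1%. Without the pairing by array, 0 of 35 passed the adjusted threshold, against 11.5%, and 2 passed unadjusted (Myl3 and Mb), against 26.1%. The 3 Ad-Lkb1 and 3 wild-type levels did not overlap for 1 of 35 members (Myl3), against 31.8% of all features. The unadjusted count of the paired test depended on array 1. Without it, 31 of 35 members had an unadjusted p under 0.05, all with the higher level in Ad-Lkb1, against 18.9% of all features, but no feature passed the adjusted threshold. Without array 2 the count was 1 (Myl3), against 16.9%, and without array 3 it was 0, against 25.6%. Without array 3 the adjusted threshold was passed by 0 members and 5.25% of all features.

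The fast fibre genes spread most between samples. Tnni2, the inhibitory troponin of fast fibres, had log2 levels of 12.31, 9.71 and 7.16 in wild type 1 to 3 and 7.74, 12.69 and 12.65 in Ad-Lkb1 1 to 3. The wild-type samples alone spanned 35.5-fold and the Ad-Lkb1 samples 30.9-fold, so the genotypes overlapped throughout. Its log2 ratio was -4.57 on array 1, 2.98 on array 2 and 5.48 on array 3 (mean 1.30 ± 5.23, SD, n = 3; limma adjusted p = 0.760).

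Tnnc2, the calcium-binding troponin of fast fibres, had log2 levels of 11.81, 9.60 and 7.50 in wild type and 7.50, 12.04 and 12.21 in Ad-Lkb1. Tnnt3, the tropomyosin-binding troponin of fast fibres, had 10.48, 8.31 and 6.64 in wild type and 7.04, 10.65 and 10.54 in Ad-Lkb1. All 3 fast troponin genes thus put wild type 2 between the high samples and wild type 3. Tnni2 and Tnnt3 are near neighbours on chromosome 7, with 2 genes between them in RefSeq. A further Tnnt3 probe gave log2 ratios of -3.89, 2.58 and 4.62, against -3.44, 2.33 and 3.90 for the probe used.

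The fast myosin heavy chains followed the same order. Myh4 had log2 levels of 11.91, 9.77 and 6.67 in wild type and 7.41, 12.14 and 11.72 in Ad-Lkb1. This is a range of 37.7-fold within wild type and 26.4-fold within Ad-Lkb1. Myh1, the myosin of the IIx fibre, had 8.26, 6.04 and 5.64 in wild type and 6.30, 7.92 and 8.05 in Ad-Lkb1, and Myh2, the myosin of the IIa fibre, had 6.91, 6.17 and 5.91 and 6.19, 7.57 and 7.81. Myh2 differed from Myh4 in that wild type 1 lay below both high Ad-Lkb1 samples. These genes lie in 1 cluster on chromosome 11 and have near-identical sequences, so cross-hybridisation between their probes cannot be separated from expression here.

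The fast light chains had narrow ranges. Myl1 had the brightest probe of the members, with log2 levels of 12.26, 11.51 and 11.31 in wild type and 11.41, 12.01 and 12.23 in Ad-Lkb1. Its samples kept the common order over a range of only 0.95. Mylpf, the regulatory light chain of fast fibres, was flat on its brightest probe, with log2 ratios of 0.01, 0.03 and -0.23. That probe carries a predicted RefSeq accession. The other Mylpf probe, of a curated accession, gave -0.11, 0.11 and 0.24 and was not well above background in any wild-type sample.

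The remaining fast genes had the common signs on every array. Pvalb had log2 levels of 10.97, 8.83 and 7.43 in wild type and 7.86, 11.25 and 11.15 in Ad-Lkb1, a range of 11.6-fold within wild type. Actn3, the fast-fibre actinin of the Z-disc, had log2 ratios of -2.01, 1.85 and 2.57. Mybpc2, the fast myosin-binding protein C, had -1.80, 1.66 and 2.45, and Myoz1, a calcineurin-binding Z-disc protein, had -1.77, 1.73 and 2.41. The calcium genes had smaller ratios. Atp2a1, the fast calcium pump of the sarcoplasmic reticulum, had -1.11, 1.29 and 1.47, and Casq1, its calcium store, had -0.56, 0.88 and 0.69.

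**Figure D2:**
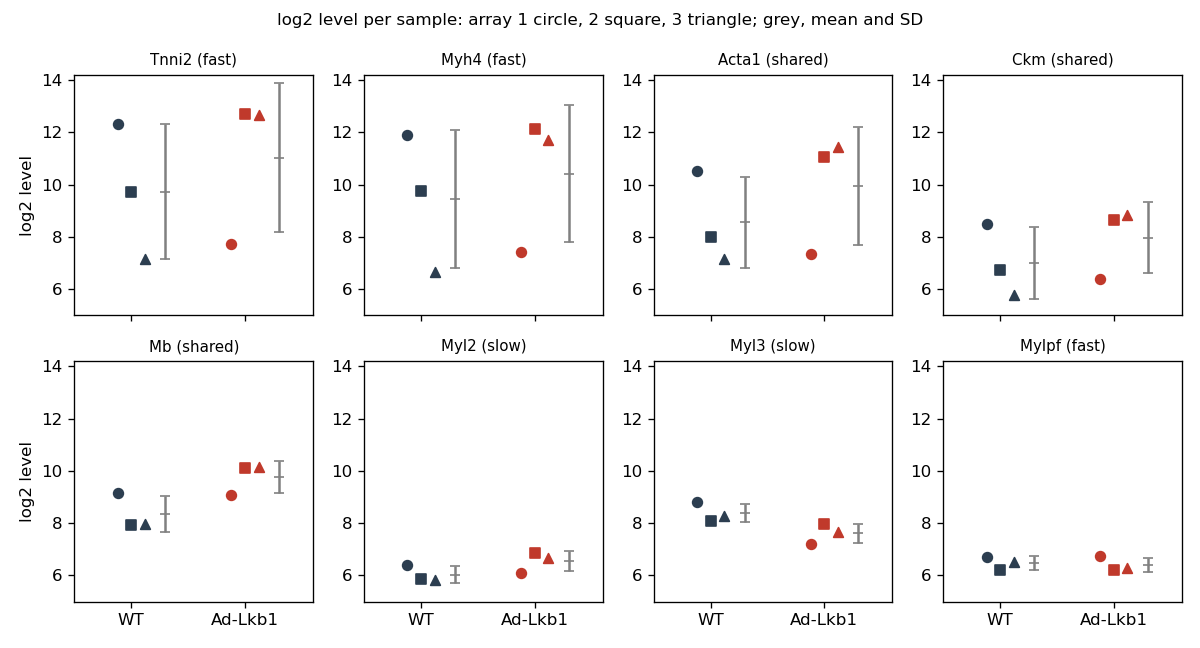
Points are log2 levels of 8 genes in each sample (array 1 circle, 2 square, 3 triangle) by genotype, with the mean and SD in grey (n = 3). For Tnni2, Myh4, Acta1 and Ckm the circle is high in wild type and low in Ad-Lkb1, while Mylpf stays between 6.19 and 6.73.

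Shared fibre genes followed the same samples with a smaller spread. Acta1 had log2 levels of 10.51, 8.01 and 7.17 in wild type and 7.34, 11.07 and 11.44 in Ad-Lkb1. Its log2 ratios were -3.17, 3.06 and 4.27, and it was the shared gene with the widest range over 6 samples, 4.27. Tcap, the titin cap of the Z-disc, had 9.63, 7.78 and 6.52 in wild type and 6.75, 9.66 and 9.87 in Ad-Lkb1. Ttn and Neb, the giant rulers of the thick and thin filament, had log2 ratios of -1.34, 1.15 and 1.56, and of -0.78, 0.59 and 0.88. A further Ttn probe had the same signs at a smaller size, -0.34, 0.34 and 0.39, and a further Neb probe gave -0.61, 0.56 and 0.88. The other structural genes kept these signs at a lower size than Acta1 and Tcap. Mybpc1, the slow-type myosin-binding protein C found in both fibre types, had -1.03, 1.20 and 1.50, and -0.45, 0.55 and 0.54 on a further probe. Tpm2 (tropomyosin 2), Actn2 (actinin 2), Ldb3 (a Z-disc PDZ protein) and Smpx (a small muscle protein) had log2 ratios between -0.77 and 1.05. A further Ldb3 probe gave 0.02, 0.16 and 0.58, so it was not below 0 on array 1.

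The enzymes of muscle energy supply also kept the order. Ckm, the muscle creatine kinase, had log2 levels of 8.51, 6.74 and 5.78 in wild type and 6.40, 8.66 and 8.82 in Ad-Lkb1. Pgam2 and Eno3, muscle enzymes of glycolysis, had log2 ratios of -2.18, 1.88 and 2.34, and of -2.25, 1.38 and 1.93. Eno3 was lowest in Ad-Lkb1 1, at 8.05, and not in wild type 3, at 8.49. Ampd1, the muscle AMP deaminase, and Ryr1, the calcium release channel, had small ratios, of -0.27, 0.28 and 0.46, and of -0.45, 0.60 and 0.58.

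Mb departed from the others on array 1. Myoglobin, the oxygen store of oxidative muscle, had log2 levels of 9.14, 7.94 and 7.98 in wild type and 9.07, 10.11 and 10.13 in Ad-Lkb1. Its ratio on array 1 was only -0.08, against 2.16 on each of arrays 2 and 3, and its mean of 1.41 ± 1.29 (SD, n = 3) was the largest of the members (limma adjusted p = 0.194). The genotypes overlapped, because wild type 1 lay above Ad-Lkb1 1. With a normexp offset of 10, or without background subtraction, the ratio on array 1 was 0.01.

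Slow fibre genes showed the least of the pattern. Tnnt1, the slow troponin T, had log2 levels of 6.86, 6.89 and 6.45 in wild type and 6.70, 7.51 and 7.51 in Ad-Lkb1, so wild type 1 was not among the high samples. Myl2, the slow regulatory light chain, had 6.41, 5.85 and 5.83 in wild type and 6.10, 6.86 and 6.66 in Ad-Lkb1. Myh7, the slow myosin heavy chain, had 6.48, 5.95 and 6.00 in wild type and 6.27, 6.79 and 6.34 in Ad-Lkb1. Myl2 and Myh7 had the same 3 high samples at low signal, and each was well above background in only 1 wild-type sample. Tnnc1, the slow and cardiac troponin C, and Tnni1, the slow troponin I, were near background, with ranges of 0.28 and 0.24 over 6 samples. Tnni1 was not well above background in any wild-type sample and was so in 1 Ad-Lkb1 sample. A further Tnnt1 probe gave log2 ratios of 0.09, 0.19 and 0.17 on arrays 1 to 3, against -0.16, 0.62 and 1.06 for the probe used. That further probe was not well above background in any wild-type sample.

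Myl3 ran against the rest. It had log2 levels of 8.79, 8.10 and 8.29 in wild type and 7.22, 7.96 and 7.65 in Ad-Lkb1, all 3 lower than any wild-type sample. The log2 ratios were -1.57, -0.14 and -0.63 (mean -0.78 ± 0.73, SD, n = 3; limma adjusted p = 0.205), so the difference did not pass the threshold. On array 1 its ratio had the sign of the other members, and on arrays 2 and 3 the opposite sign.

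**Figure D3:**
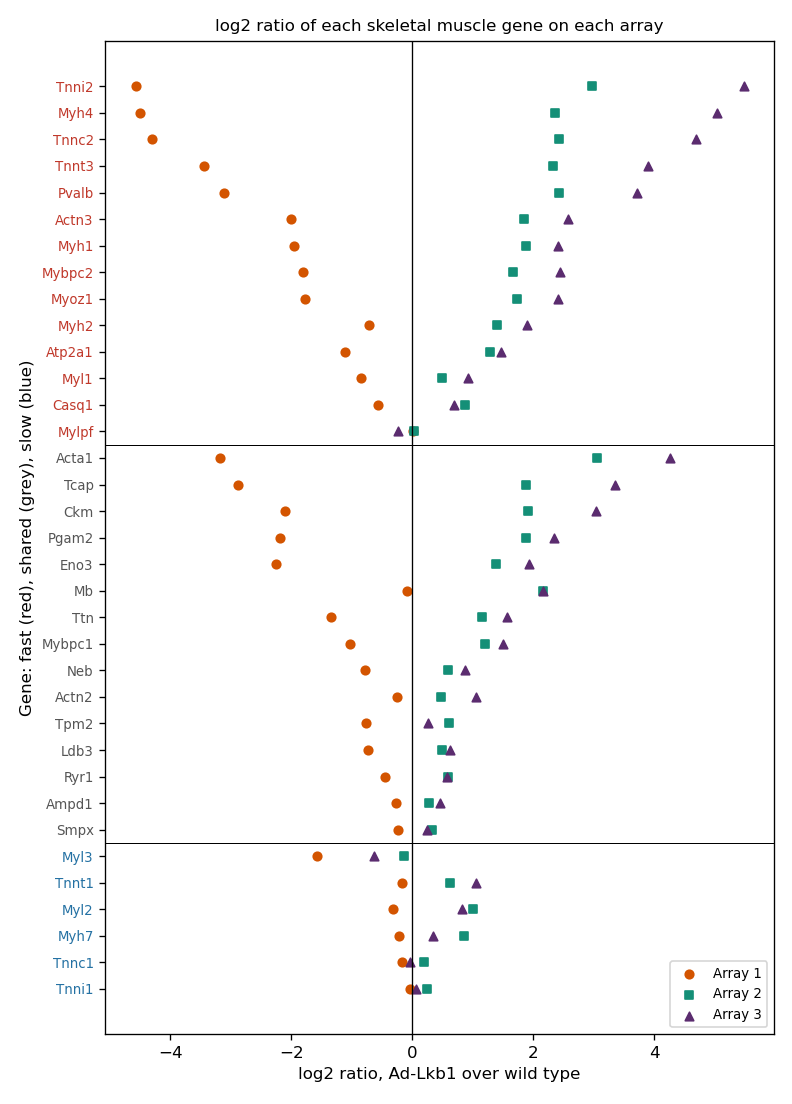
Each row is a gene and each point its log2 ratio (Ad-Lkb1 against wild type) on array 1 (circle), 2 (square) or 3 (triangle). Array 1 lies left of 0 and arrays 2 and 3 right of it for 32 of 35 genes; Tnni2 spans -4.57 to 5.48.

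By class, the median log2 ratio on arrays 1, 2 and 3 was -1.88, 1.79 and 2.43 for the fast genes. It was -0.78, 1.15 and 1.50 for the shared genes and -0.19, 0.43 and 0.21 for the slow genes. The median of the mean ratio was 0.80 (SD of the array medians 2.33), 0.43 (SD 1.23) and 0.21 (SD 0.31). Leaving out 1 array moved these medians to between -0.07 (without array 3) and 2.11 (without array 1) for fast genes and between -0.08 and 1.35 (the same arrays) for shared genes. For slow genes they lay between 0.04 (without array 2) and 0.37 (without array 1). Median ranges over the 6 samples were 2.61, 1.56 and 0.94 in the same order. Ad-Lkb1 2 lay above Ad-Lkb1 3 for 5 of 6 slow genes, 9 of 14 fast genes and 7 of 15 shared genes. Wild type 3 held the lowest of 6 levels for 13 of 14 fast, 11 of 15 shared and 2 of 6 slow genes. The share over all features was not taken for these orders, so they compare the classes only. Ad-Lkb1 1 and wild type 3 were the 2 lowest samples for 17 members, against 5.54% of all features.

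Probe brightness was lower for the slow class, and its part in the difference between classes was not tested. The median level was 7.36 for fast, 7.32 for shared and 6.29 for slow genes, and the offset of 50 compresses ratios of dim probes. On the software's processed signals, which have no offset, median ranges were 5.29 for fast, 3.72 for shared and 2.28 for slow genes. Of the 35 members, 34, 26 and 18 were well above background in wild type 1 to 3, and 22, 35 and 33 in Ad-Lkb1 1 to 3. Over all features the shares were 83.8%, 83.5% and 83.8% in wild type and 85.1%, 91.0% and 90.7% in Ad-Lkb1. A probe was kept if bright in any 1 sample, so more members detected in the high samples is partly built into the filter. The filter on all 3 arrays kept 22 members.

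**Figure D4:**
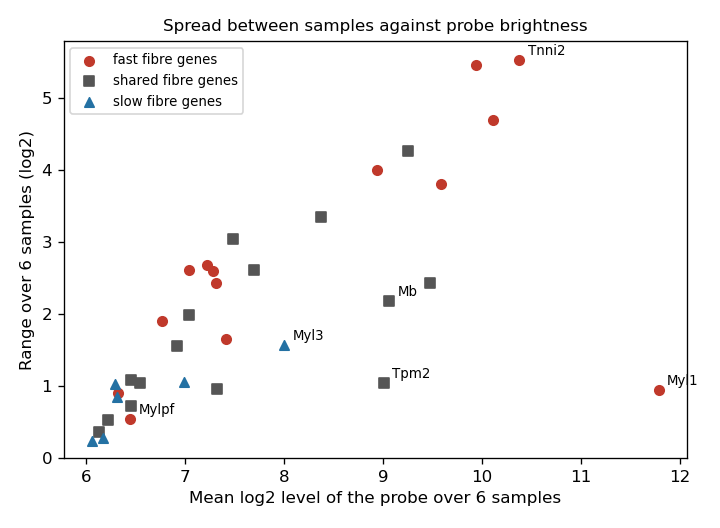
Each point is a gene, with the mean log2 level of its probe on the x axis and its range over 6 samples (log2) on the y axis. The slow genes have ranges of 0.24 to 1.57, the widest for Myl3, and Myl1, the brightest probe, ranges over 0.95.

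Some fast and shared muscle genes were among the most variable genes of the series within a genotype. Named genes ranked by range numbered 14909, of which 35 were members. Of the 20 named genes with the widest range over the 3 Ad-Lkb1 samples, 10 were members and 4 more were on the other muscle lists. Over the 3 wild-type samples, 3 members (Myh4, Tnni2 and Tnnc2) were among the 20 widest. By range of the log2 ratio over arrays, 8 members were. Other members spread little, such as Tnni1, with a log2 range of 0.14 within each genotype.

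The genes most like the members were other muscle genes. Among 1387 named genes with a range of at least 1, outside the list, the 10 with the highest Pearson r to the members' mean over 6 samples were all on the muscle lists described below, with r of 0.97 to 0.99. They were Pygm, Cox6a2, Ckmt2, Tmod4, Cacna1s, Myom2, Jsrp1, Hrc, Myot and Myh8. The 6 samples share 3 arrays, and r is given as a description. Cox6a2, the heart and muscle subunit of cytochrome c oxidase, had log2 levels of 9.05, 7.09 and 5.98 in wild type and 7.06, 9.49 and 9.39 in Ad-Lkb1. Ckmt2, the mitochondrial creatine kinase of sarcomeric muscle, had 7.95, 6.47 and 5.79 in wild type and 6.30, 8.58 and 8.13 in Ad-Lkb1. Pygm, the muscle glycogen phosphorylase, had log2 ratios of -1.37, 1.16 and 1.30, and Cacna1s, the voltage sensor of excitation, had -1.29, 1.44 and 1.66. Myh8, the perinatal myosin, had -4.57, 2.24 and 4.99, close to Myh4. Both are closely related in sequence, so the value of Myh8 is uncertain.

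Other muscle lists held genes that did change between genotypes and did not follow the array pattern. The members' signs were still seen for 7 of 17 excitation-contraction coupling genes, 4 of 12 glycogen and nucleotide enzymes and 3 of 9 dystrophin complex and sarcolemma genes. In the mitochondrial list and in the neuromuscular junction list they were seen for 2 of 9 genes each. The share over all features was 10.0%. In excitation-contraction coupling, 2 of 17 measured genes rose and 0 fell, where 3.47% of all features rose and 2.91% fell. Atp2a2, the calcium pump of slow, cardiac and non-muscle cells, rose by 0.75 (log2; limma adjusted p = 0.0181), with ratios of 0.76, 0.74 and 0.76. Srl, the calcium-binding sarcalumenin, rose by 0.89 (limma adjusted p = 0.0434). With median centring these values were 0.08 and 0.27, and neither passed. Casq2 (ratios 0.33, 0.24 and 0.41) and Cacna2d1 (0.06, 0.14 and 0.22) did not pass. The fast pump gene Atp2a1 and Atp2a2 therefore had unlike values: Atp2a1 ran from -1.11 to 1.47 over arrays and Atp2a2 from 0.74 to 0.76.

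Of 9 mitochondrial genes known in both muscle and brown fat, 2 rose and 2 fell, against the same 3.47% and 2.91%. Cox7a1, a cytochrome c oxidase subunit of heart, muscle and brown fat, rose by 0.96, and Ucp3, the muscle and brown fat uncoupling protein, by 1.06 (limma adjusted p = 0.0290 and 0.0340). With median centring these were 0.28 and 0.40, and neither passed. Fabp3, the heart and muscle fatty acid binding protein, fell by 0.98, and Coq10a, a coenzyme Q binding protein, fell by 0.71 (limma adjusted p = 0.0271 and 0.0384). Cox6a2 and Ckmt2 of the same list followed the members. Of 12 glycogen and nucleotide enzymes, Ldha, lactate dehydrogenase A, rose by 0.48 (limma adjusted p = 0.0398), a direction that turned to -0.20 with median centring, and Fbp2, the muscle fructose bisphosphatase, fell by 0.74 (limma adjusted p = 0.0450). Ppp1r3c, a glycogen-targeting phosphatase subunit, had a ratio of -1.78 (limma adjusted p = 0.0528), and Phka1 -0.42, so neither passed.

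Of 9 genes of the dystrophin complex and sarcolemma, 2 fell: Dag1, dystroglycan, by 0.81 and Sspn, sarcospan, by 1.04 (limma adjusted p = 0.0179 and 0.0195), against 2.91% of all features. Dysf (0.45) did not pass. Of 34 other sarcomere genes, 0 passed, with 21 showing the members' signs against 10.0% of all features. Their 4 smallest p belonged to Tpm3 (0.51), Ankrd23 (1.07), Unc45b (-0.24) and Myom3 (-0.19). Of 9 neuromuscular junction and embryonic or denervation genes, Gadd45a rose by 0.67 (limma adjusted p = 0.0373; 0.39 and not past the threshold with median centring), while Ncam1 (0.21) and Runx1 (0.15) did not pass. Of 14 myogenic regulators, 0 passed, among them Six4 (0.46), Sox6 (-0.28) and Rxrg (-0.38), and 3 of the 14 had the members' signs. Of the 13 genes outside the list named so far as changed, Stk11 and Ucp1 included, 0 passed with the software's processed signals, with the deposited table, without array 1 or without array 2, and 9 passed without array 3. With median centring 7 passed, with 12 of 13 in the same direction, and 8 passed with no filter on dim probes.

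Markers of other cell types were set beside the pattern. For 8 heart-specific genes the median deviation from a gene's mean lay between -0.06 and 0.06 in every sample. Of these 8 genes, 2 were not well above background in any wild-type sample, and single genes ranged over up to 1.33 between samples. Nppa, Nppb, Nkx2-5, Gata4, Myh6 and Ryr2 had log2 levels of only 5.82 to 6.40. Levels this low leave little room for a spread, so the flat median cannot show whether heart genes shared the pattern. The 8 smooth muscle genes lay between -0.20 and 0.15, with 1 of 8 higher in Ad-Lkb1 past the threshold, against 3.47% of all features. The 4 tendon genes lay between -0.16 and 0.08. Their log2 levels were only 5.86 to 6.43, and 2 of the 4 were not well above background in any wild-type sample. For the 14 fast fibre genes the same value was 1.10, -0.61 and -1.46 in wild type and -0.80, 1.01 and 1.03 in Ad-Lkb1. Macrophage genes had higher medians in all Ad-Lkb1 samples, at 1.00, 0.85 and 0.75 against -0.99, -1.27 and -0.34. Of these 8 genes, 5 rose, against 3.47% of all features, while Itgam (mean log2 ratio -0.09) and Cd14 (-0.03) were not higher. Of 8 peripheral nerve genes 1 rose and 1 fell, against 3.47% and 2.91% of all features. The members' signs were seen for 5 of these 8, against 10.0% of all features, with median log2 ratios of -0.02, 0.14 and 0.22 on arrays 1 to 3. The members' 3 high samples were the highest for 2 of the 8, against 4.18%. The part of nerve genes in the muscle pattern was not tested. Of 2 lymph node genes measured 0 passed, against 6.39%. The 12 brown adipocyte genes lay at 0.05, -0.01 and -0.32 in wild type and 0.06, 0.17 and 0.15 in Ad-Lkb1. Past the threshold, 4 of these 12 rose and 1 fell, against 3.47% and 2.91% of all features. Red blood cell genes were highest in wild type 3, at 0.73, where the fast genes were lowest, and their part in the muscle pattern was not tested.

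**Figure D5:**
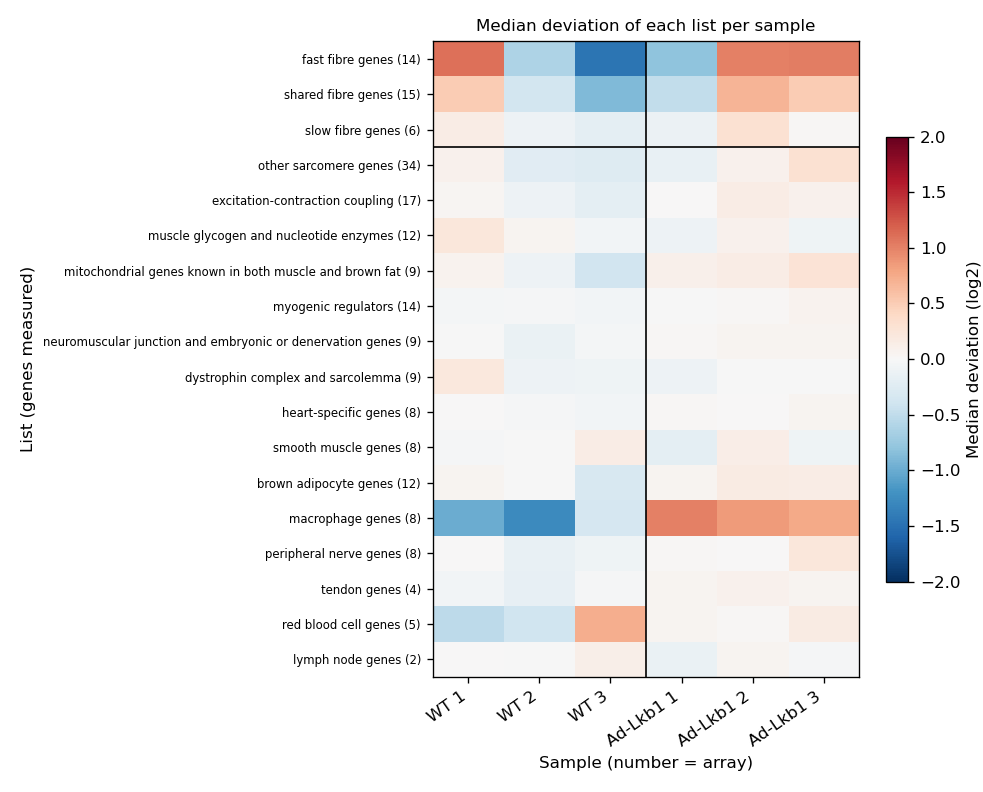
Each cell is the median, over the genes of a list, of the log2 level in a sample less the gene's mean over 6 samples. Fast and shared fibre genes are high in wild type 1 and Ad-Lkb1 2 and 3, while heart-specific, tendon and smooth muscle genes stay between -0.20 and 0.15. Of the 8 heart-specific and 4 tendon genes, 2 of each were not well above background in any wild-type sample. Most genes of these lists had low levels, which leave little room for a spread.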

How the data were processed

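The deposited scanner files hold median spot and background intensity in both channels and a log10 ratio (Cy5 to Cy3), made with Agilent Feature Extraction 11.5 per the submitters' processing notes; the deposited value table holds that log10 ratio. The array is annotated on mm9 per the file headers. Medians were used because the files give no means. In R 4.3.3 with limma 3.58.1, intensities were background-corrected by normexp (offset 50) and normalized within arrays by loess, where control spots had weight 0. Of 55681 probes, 31048 were well above background in at least 1 channel on any array and were kept. RefSeq accessions of 28026 probes matched 1 symbol. Ratios were tested against 0 with lmFit and eBayes and adjusted by Benjamini-Hochberg over 23330 features. Sample levels were taken after loess and Aquantile scaling, and a probe's brightness describes its signal on the array, not the abundance of its RNA against another gene's. The fit was tested on simulated data. No depth other than signal over background applies, and the number of arrays, 3, limits the precision.

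The members and lists were chosen with earlier results of these data known. Genes named are all members, up to 4 genes of each other muscle list with the smallest p, Stk11, Ucp1 and the 10 genes most like the members; some genes that this rule names are not reported here, and genes outside it were chosen after their values were seen. Alternatives are listed with their effect in the closing section.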

Additional observations from a re-analysis of the deposited data

How the results depend on the processing

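The opposite signs on array 1 and on arrays 2 and 3 were seen for 31 to 33 of 35 members with another offset, no background subtraction, processed signals, the deposited table, median centring, no filter on dim probes or the mean of probes, and for 20 of 22 with the filter on all 3 arrays. All features past the threshold numbered 1490, and 200 with processed signals, 184 with the deposited table, 9749 with median centring, 2690 with no replicate block (channels unpaired), and 0 to 1224 without 1 array. With median centring the median log2 ratio of all features was -0.30, against -0.01 in the main setting. Of the calls, 54.4% were higher, against 67.5% with an offset of 10, 64.7% without background subtraction, 72.0% with processed signals, 72.3% with the deposited table and 3.92% with median centring. With median centring 1 member, Myl3, was lower. The slow genes' median ratio of 0.21 was 0.53 with processed signals and 0.54 with the deposited table. The members' mean deviation of -0.77 in Ad-Lkb1 1 and -1.05 in wild type 3 was -1.83 and -2.08 on processed signals. The cause was not tested.

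With median centring the mean ratio turned to -0.52 for Myl1, -0.32 for Eno3, -0.61 for Tpm2, -0.30 for Ldb3, -0.13 for Pygm, -0.02 for Tmod4, -0.00 for Hrc, -0.20 for Tpm3, -0.15 for Cacna2d1, -0.20 for Ldha and -0.22 for Dysf. With the mean of probes it was 0.01 for Mylpf. Leaving out 1 array at a time, mean ratios that changed sign ran from -0.06 to 3.66 for Acta1, -0.04 to 2.15 for Myh1, -1.07 to 3.70 for Myh4, -0.09 to 2.48 for Ckm, -0.11 to 0.02 for Mylpf, -0.17 to 0.71 for Myl1, -0.55 to 3.12 for Tnnt3, -0.80 to 4.23 for Tnni2, -0.10 to 0.07 for Tnnc1, -0.93 to 3.57 for Tnnc2, -0.08 to 2.21 for Actn3, -0.35 to 3.07 for Pvalb, -0.10 to 1.35 for Ttn, -0.09 to 0.73 for Neb, -0.43 to 1.65 for Eno3, -0.25 to 0.44 for Tpm2, -0.07 to 2.06 for Mybpc2, -0.15 to 2.11 for Pgam2, -0.02 to 2.07 for Myoz1, -0.50 to 2.62 for Tcap and -0.11 to 0.56 for Ldb3. Outside the list they ran from -0.11 to 1.23 for Pygm, -0.11 to 1.01 for Tmod4, -0.01 to 1.26 for Hrc, -1.17 to 3.61 for Myh8 and -0.03 to 0.75 for Xirp1.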

Other observations

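A few sarcomere genes were high in Ad-Lkb1 3 alone. They were chosen after their values were seen, and no test was made. Csrp3, a muscle LIM protein of the Z-disc, had log2 levels of 6.05, 6.33 and 8.72 in Ad-Lkb1 1 to 3 and 6.35, 5.91 and 5.75 in wild type. Flnc, the muscle filamin, had 6.74, 7.04 and 8.88 in Ad-Lkb1 and 6.87, 6.49 and 6.57 in wild type. Ankrd2, a titin-binding ankyrin repeat protein, had 6.32, 6.51 and 7.68 in Ad-Lkb1 and 6.34, 6.27 and 6.05 in wild type. Xirp1 had log2 ratios of -0.14, 0.07 and 1.43 on arrays 1 to 3, and Hspb7, a small heat shock protein, had -0.05, 0.16 and 1.15. Ad-Lkb1 2, where the members were about as high as in Ad-Lkb1 3, did not show these levels.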
